A study of Mus musculus with 6 samples.

Results

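The DNA replication and mitosis genes are a set of 41 genes, picked by name as textbook genes of the dividing cell, among 54532 genes measured in mouse intestine. Of these, 21 act in DNA replication or in the entry into S phase, 18 act in mitosis, and Mki67 and Top2a mark cycling cells in general and were counted with neither group. Each name had 1 row in the files, all 41 passed the filter on low counts, and each had between 69 and 8157 counts in each library.

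RNA came from the intestine of newborn C57BL/6 mice, an inbred laboratory strain, in 2 groups of 3 libraries that differ by 5 days with NECA or with DMSO. NECA is an adenosine analogue that activates several adenosine receptors, and DMSO is the solvent control. The labels name no bowel segment, no route for NECA and no number of animals per library, so p-values measure the spread between libraries, part of which may be technical. The series is titled as work on adenosine and necrotizing enterocolitis, in which the bowel of newborns becomes inflamed and dies. Total counts ran from 15531996 to 18065078 per library, and all 12 markers of intestinal epithelium had counts in every library. NECA replicate 2 stood apart from the other 5 libraries: over the genes tested, which do not count as replicates, its median correlation of log2 CPM with the others was 0.935, and that of the rest 0.961 to 0.980.

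In the intestine, cells divide in the crypts, or in the newborn in the regions between villi from which crypts form, and the cells that leave these zones stop dividing as they mature. Before S phase, the MCM2-7 ring is loaded onto DNA as an inactive helicase, and it is switched on when Cdc45 and the GINS complex join it. At mitosis, Cdk1 bound to a B-type cyclin starts the division, Aurora and Polo kinases build the spindle, and the checkpoint holds back the anaphase-promoting complex until the chromosomes are attached. Replication genes are textbook targets of E2F factors, whereas many mitosis genes are read late in the cycle through CCAAT boxes and a cell cycle homology region, the CHR.

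The words of these factors were searched in the promoters that RefSeq gives for GRCm38.p6, windows of 300 bases from 250 before to 50 after the start. Windows were found for 33 of the 41 members, 2 each for E2f2 and Mcm7, so 35 in all. The others were Gins1, Gins2, Mcm4, Ccne2, Ccna2, Aurkb, Kif20a and Tpx2. The E2F words searched were TTTGGCGC, TTTCGCGC, TTTCCCGC and TTTGCCGC, the NF-Y word was CCAAT, and the CHR words were TTTGAA and TTCGAA, each on either strand. The last of these is its own reverse complement. An E2F word stood in 8 of 19 replication windows and in 1 of 14 mitosis windows, that of Cdk1, beside 2.26% of all 32851 windows. A CHR word stood in 10 of 14 mitosis windows and in 4 of 19 replication windows, beside 19.2% of all windows. CCAAT was found in 14 of 19 and 12 of 14 windows, beside 37.4%. A match describes letters only and does not show that a factor binds.

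The following 6 stretches end at the base before the start and run 5′ to 3′, with the words found in capitals, to show the E2F words of replication promoters and the CCAAT and CHR words of mitosis promoters. In Mcm6, 2 overlapping E2F matches form the first capital run. Mcm2 is shown because its values stood apart from those of the other members, and none of the E2F words was in its window. Cdk1 is shown because it holds words of all 3 kinds.
Mcm6 (chr1:128359706-128359855, minus strand): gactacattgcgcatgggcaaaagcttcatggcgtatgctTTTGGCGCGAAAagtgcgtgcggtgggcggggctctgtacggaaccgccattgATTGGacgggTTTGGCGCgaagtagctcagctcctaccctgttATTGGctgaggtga
Pola1 (chrX:93632156-93632305, minus strand): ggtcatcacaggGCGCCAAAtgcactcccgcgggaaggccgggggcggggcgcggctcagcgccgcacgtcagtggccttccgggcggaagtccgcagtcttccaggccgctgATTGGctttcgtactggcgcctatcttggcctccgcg
Mcm2 (chr6:88898781-88898930, minus strand): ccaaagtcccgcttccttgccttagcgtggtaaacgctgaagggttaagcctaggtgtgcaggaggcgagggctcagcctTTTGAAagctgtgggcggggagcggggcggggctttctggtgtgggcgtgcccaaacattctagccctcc
Cdk1 (chr10:69352913-69353062, minus strand): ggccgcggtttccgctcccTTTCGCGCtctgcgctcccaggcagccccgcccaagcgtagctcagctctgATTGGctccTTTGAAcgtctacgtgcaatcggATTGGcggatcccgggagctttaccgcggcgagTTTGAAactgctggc
Cdc20 (chr4:118437344-118437493, minus strand): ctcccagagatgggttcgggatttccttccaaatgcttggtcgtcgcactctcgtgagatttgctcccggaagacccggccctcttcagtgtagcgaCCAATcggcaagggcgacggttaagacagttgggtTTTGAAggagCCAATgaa
Kif11 (chr19:37376232-37376381, plus strand): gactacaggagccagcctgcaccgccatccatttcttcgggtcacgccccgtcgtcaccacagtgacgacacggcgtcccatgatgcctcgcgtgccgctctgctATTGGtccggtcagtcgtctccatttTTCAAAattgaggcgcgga

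Levels can be set beside each other between genes only per transcript length, as in the deposited FPKM values. By the mean FPKM over the 6 libraries, the sliding clamp Pcna stood first at 68.4 FPKM, followed by the helicase subunit Mcm6 at 32.2 and the B-type cyclin Ccnb2 at 28.2. Pcna was at 53.5, 52.1 and 74.3 FPKM with DMSO and at 62.4, 108 and 59.9 FPKM with NECA, so that every library of both groups had more Pcna than Mcm6 per length, the latter reaching at most 51.1 FPKM. The lowest levels were those of the helicase loader Cdc6 at 2.14 FPKM, the kinetochore protein Cenpf at 2.21 and the S phase cyclin Ccne2 at 2.41. Cdc6 was at 1.28, 1.28 and 2.07 FPKM with DMSO and at 1.64, 4.70 and 1.84 FPKM with NECA. These 3 lowest genes overlapped each other across libraries, so their order is not fixed by these data. Replication members had a median of 9.39 FPKM, over a range from 2.14 to 68.4 FPKM. Mitosis members had a median of 11.2 FPKM, over a range from 2.21 to 28.2 FPKM.

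**Figure D1:**
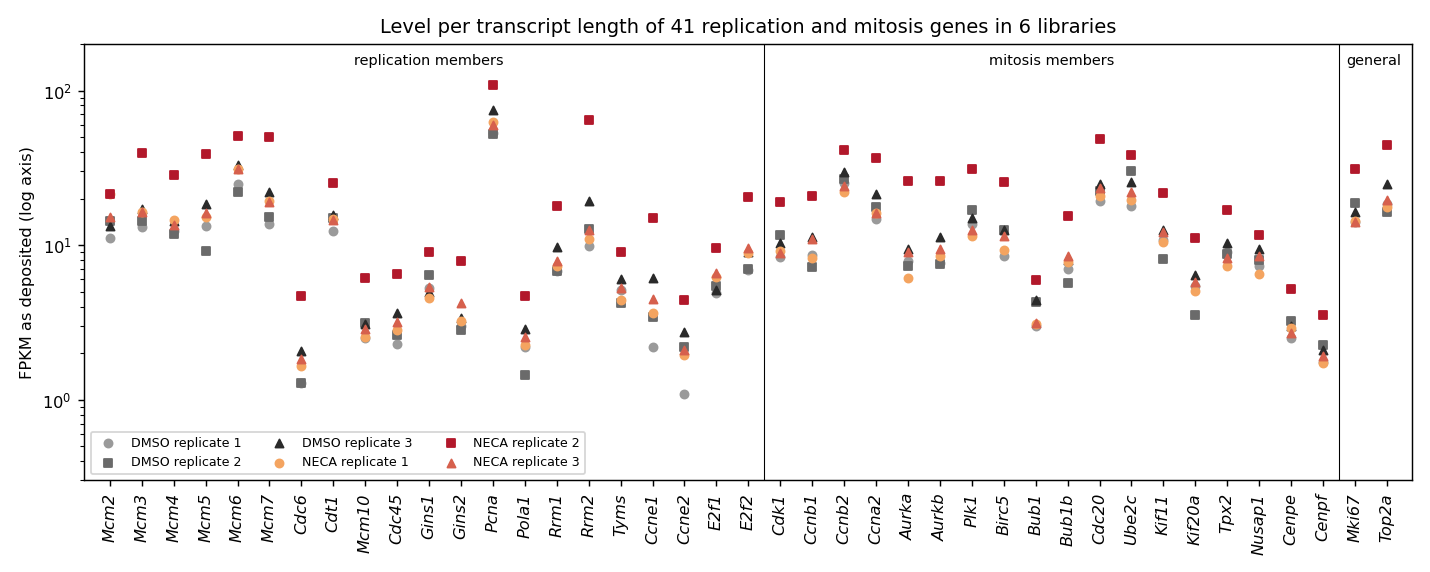
FPKM as deposited (log axis) of the 41 genes, ordered by role, in the 3 DMSO libraries (grey) and the 3 NECA libraries (orange to red). Pcna lies highest and Cdc6, Cenpf and Ccne2 lowest, and NECA replicate 2 (dark red squares) is the top point of 40 of the 41 genes on this scale.

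All 41 genes had a higher fitted level in NECA than in DMSO, and none passed the test. The log2 fold changes of NECA over DMSO ran from 0.039 for the checkpoint kinase Bub1 to 1.05 for the ribonucleotide reductase subunit Rrm2, with a median of 0.54 for replication and 0.33 for mitosis members. The median over all 15847 genes tested was -0.0080, and 49.0% of them had a fold change above 0. In the quasi-likelihood test of edgeR, Benjamini-Hochberg adjusted over all genes, 0 members were called, the smallest adjusted p among them being 0.738, and 0 of all genes (0.0%) were called, with 868 of them at an unadjusted p under 0.05. At an unadjusted p under 0.05 there were 2 members, Mcm2 and E2f1, both higher in NECA, beside 2.45% of all genes in that direction. The groups did not overlap in the same 2 members, beside 6.49% of all genes with all NECA libraries higher and 7.16% with all NECA libraries lower. DESeq2 called 11 of the 15847 genes (0.0694%) and 0 members, with a smallest adjusted p among members of 0.64.

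The higher means came largely from 1 library. In CPM (counts scaled to the size of the library, with TMM factors), NECA replicate 2 was the highest of the 6 libraries in 41 of 41 members, beside 30.1% of all genes tested. On the scale of the deposited FPKM values, which use other library factors, it was highest in 40, the exception being Mcm2. The ratio of NECA replicate 2 to the mean of the other 5 libraries ran from 1.42 for Mcm2 to 4.91 for Rrm2, with a median of 2.21 for replication and 2.05 for mitosis members, and of 0.994 over all genes. It exceeded 2 in 26 members, 14 of the 21 replication and 10 of the 18 mitosis members among them, beside 4.83% of all genes. In 27 members NECA replicates 1 and 3 both lay within the range of the 3 DMSO libraries. The share of all genes for which this holds was not computed, so that count is a description only. Together the members took 0.473% of all counts in NECA replicate 2 and 0.175% to 0.226% in the others. NECA replicate 2 also had the highest summed level of distal small bowel markers, 4639 CPM beside 868 to 1697 CPM, and the lowest of proximal ones, 1036 CPM beside 21975 to 25513 CPM. Their part in the result was not tested. In bulk tissue, fewer or more cycling cells and less or more RNA per cell cannot be told apart.

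**Figure D2:**
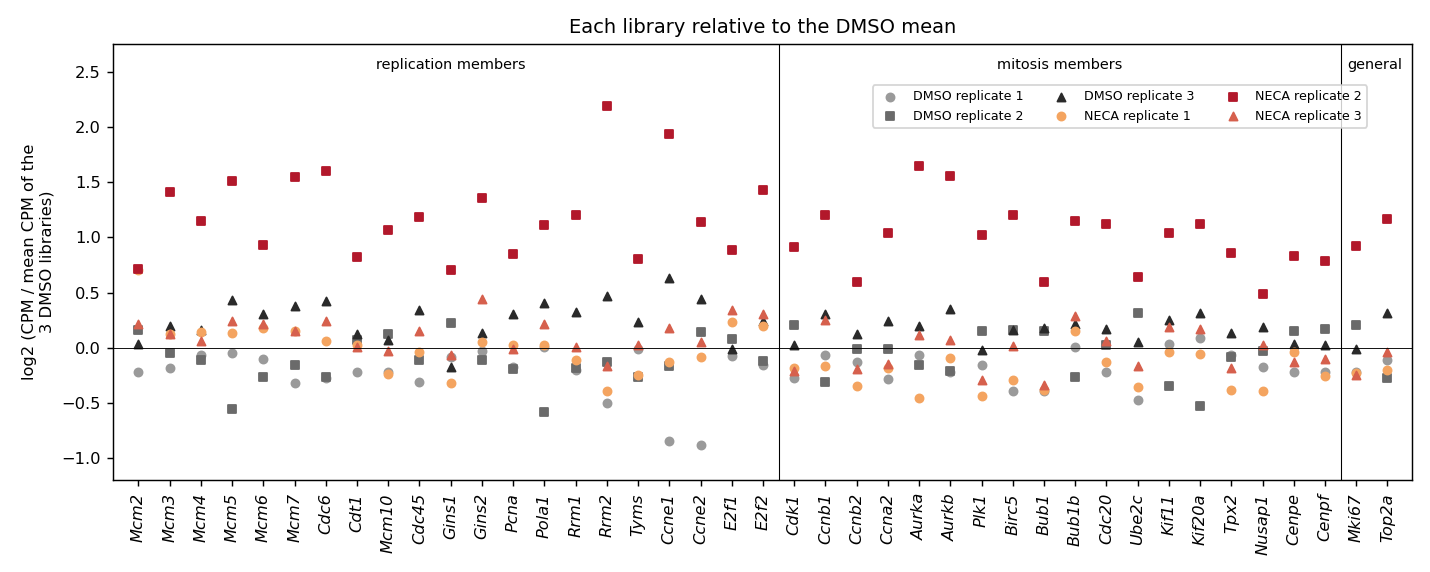
Each library's CPM divided by the mean CPM of the 3 DMSO libraries, on a log2 scale, for the 41 genes ordered by role. NECA replicate 2 (dark red squares) is the top point of every gene, next to NECA replicate 1 in Mcm2, while NECA replicates 1 and 3 lie among the DMSO libraries in most genes.

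Among the DMSO libraries, replicate 3 had the highest level in 30 of the 41 members, 17 of the replication and 12 of the mitosis members, and replicate 2 in the other 11. The highest DMSO library was a median of 1.41 times the lowest, up to 2.78 times in Ccne1.

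The helicase MCM2-7 is a ring of 6 related subunits, and Mcm2 was the member with the smallest p. Mcm2 (ENSMUSG00000002870, chromosome 6, 88883474 to 88898780, GRCm38) was at 78.3, 102 and 93.6 CPM with DMSO and at 149, 150.0 and 106 CPM with NECA. All 3 NECA libraries lay above all 3 DMSO libraries, and NECA replicate 1 was as high as NECA replicate 2. The group means were 91.3 ± 12.0 CPM with DMSO against 135 ± 25.1 CPM with NECA (SD over n = 3 libraries each), a log2 fold change of 0.56 (SE 0.19) with an edgeR adjusted p of 0.738. Leaving out NECA replicate 2 gave 0.48 (SE 0.18), so Mcm2 kept most of its difference, at an edgeR adjusted p of 0.848.

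The other 5 subunits behaved otherwise. Mcm6 was at 118, 105 and 155 CPM with DMSO and at 143, 241 and 146 CPM with NECA. Mcm3 was at 49.6, 54.6 and 64.5 against 61.2, 149.6 and 61.3 CPM, and Mcm7 at 61.1, 68.6 and 99.0 against 84.5, 222 and 84.6 CPM. In these 3 genes NECA replicates 1 and 3 lay between the lowest and the highest DMSO library, and only NECA replicate 2 lay outside. The log2 fold changes of the 5 subunits ran from 0.49 (SE 0.26) for Mcm6 to 0.78 (SE 0.40) for Mcm7, with Mcm3 at 0.69 (SE 0.35). Without NECA replicate 2 they ran from 0.11 (SE 0.14) for Mcm4 to 0.20 (SE 0.18) for Mcm6, so that all 5 kept their sign at a smaller size. Mcm7 overlaps Cops6 and Ap4m1 on the opposite strand. Without the strand setting of the counting, reads of Mcm7 and of 8 other members (Cdc45, Gins2, Ccne2, Ccna2, Cdc20, Kif20a, Ube2c and Nusap1) cannot be told apart from those of a protein-coding gene on the other strand, which for Ube2c had 1 count over the 6 libraries. Plk1 overlaps Gm44985 there, which is not annotated as protein-coding, with 226 counts over the 6 libraries.

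The factors that load and switch on the helicase ranged from 2.14 to 16.3 FPKM (mean of the 6 libraries). Cdc6, which loads the ring with Cdt1, was at 6.74, 6.82 and 10.9 CPM with DMSO and at 8.52, 24.8 and 9.63 CPM with NECA, with a log2 fold change of 0.81 (SE 0.44), or 0.16 (SE 0.27) without NECA replicate 2. Gins2, of the GINS complex, was at 12.4, 11.7 and 13.9 CPM with DMSO and at 13.1, 32.5 and 17.2 CPM with NECA. NECA replicate 1 lay inside the DMSO range and NECA replicates 2 and 3 above it, for a log2 fold change of 0.73 (SE 0.33), or 0.26 (SE 0.19) without NECA replicate 2. Its partner Gins1 differed by 0.18 (SE 0.30), the smallest fold change of a replication member, and by -0.18 (SE 0.23) without that library. Cdt1 differed by 0.34 (SE 0.24), Cdc45 by 0.54 (SE 0.35), and Mcm10, which acts when the helicase is switched on, by 0.39 (SE 0.34). Without NECA replicate 2, the values were 0.020 (SE 0.14) for Cdt1, 0.065 (SE 0.24) for Cdc45 and -0.12 (SE 0.17) for Mcm10.

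At the fork, Pcna holds the polymerases to DNA and Pola1 is the catalytic subunit of the primer-making polymerase alpha. Pcna (ENSMUSG00000027342, chromosome 2, 132249162 to 132253314, GRCm38) was at 129, 127 and 179.7 CPM with DMSO and at 148, 262 and 144 CPM with NECA. DMSO replicate 3 lay above NECA replicates 1 and 3, and only NECA replicate 2 lay above it. The log2 fold changes were 0.35 (SE 0.27) for Pcna and 0.53 (SE 0.35) for Pola1, and 0.011 (SE 0.18) and 0.12 (SE 0.27) without NECA replicate 2.

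Among the nucleotide supply genes, Rrm2 held the largest single-library excess of all members. In Rrm1 and Tyms, the others of that role, NECA replicate 2 was 2.33 and 1.80 times the mean of the other 5 libraries. Rrm2, the small subunit of ribonucleotide reductase, is described here because its ratio was the largest, a choice made after its values were seen. Rrm2 (ENSMUSG00000020649, chromosome 12, 24708241 to 24714146, GRCm38) was at 27.6, 35.8 and 54.2 CPM with DMSO and at 29.9, 179 and 34.9 CPM with NECA. NECA replicate 2 was 4.91 times the mean of the other 5, whereas NECA replicate 1 lay below 2 of the 3 DMSO libraries. The log2 fold change was 1.05 (SE 0.67), with an edgeR adjusted p of 0.738, and -0.27 (SE 0.27) without NECA replicate 2. The large subunit Rrm1 and the thymidylate synthase Tyms differed by 0.49 (SE 0.36) and 0.27 (SE 0.28), and by -0.049 (SE 0.18) and -0.10 (SE 0.19) without that library, so all 3 genes of this role had the opposite sign then.

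Among the regulators of S phase entry, E2f1 was the second member whose groups did not overlap. E2f1 (ENSMUSG00000027490, chromosome 2, 154559407 to 154569892, GRCm38), a transcription factor that switches on replication genes, was at 15.6, 17.4 and 16.2 CPM with DMSO and at 19.3, 30.3 and 20.8 CPM with NECA. The DMSO libraries lay close together, and each NECA library lay above them. The means were 16.4 ± 0.898 CPM with DMSO against 23.5 ± 5.95 CPM with NECA (SD over n = 3 libraries each), a log2 fold change of 0.52 (SE 0.21) with an edgeR adjusted p of 0.738. Without NECA replicate 2 it was 0.29 (SE 0.16), with an edgeR adjusted p of 0.848. Its relative E2f2 was at 33.8, 34.6 and 44.6 CPM with DMSO and at 43.1, 101 and 46.6 CPM with NECA. NECA replicate 1 lay below DMSO replicate 3 there, and the log2 fold change was 0.76 (SE 0.33), or 0.25 (SE 0.16) without NECA replicate 2.

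The E-type cyclins, which drive the start of S phase with Cdk2, varied most among the DMSO libraries. Ccne2 was at 3.85, 7.82 and 9.61 CPM with DMSO and at 6.71, 15.6 and 7.34 CPM with NECA. Its log2 fold change was 0.49 (SE 0.44), and -0.0050 (SE 0.37) without NECA replicate 2. Ccne1 differed by 0.98 (SE 0.60) and by 0.040 (SE 0.39) without it. In Ccne1, NECA replicate 2 was 3.80 times the mean of the other libraries.

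In mitosis, Cdk1 and its cyclins form the kinase that starts division. Ccnb1 (ENSMUSG00000041431, chromosome 13, 100778650 to 100786570, GRCm38) was at 36.8, 31.1 and 47.7 CPM with DMSO and at 34.4, 88.7 and 46.0 CPM with NECA. NECA replicates 1 and 3 lay inside the DMSO range, and the log2 fold change was 0.55 (SE 0.35), or 0.063 (SE 0.21) without NECA replicate 2. Ccnb2, the other B-type cyclin, was at 38.7, 41.9 and 46.0 CPM with DMSO and at 33.3, 64.0 and 37.0 CPM with NECA. Here NECA replicates 1 and 3 lay below all 3 DMSO libraries, and the log2 fold change of 0.085 (SE 0.25) became -0.26 (SE 0.14) without NECA replicate 2. Cdk1 differed by 0.27 (SE 0.31) and the S and G2 phase cyclin Ccna2 by 0.36 (SE 0.34), or by -0.19 (SE 0.16) and -0.16 (SE 0.17) without that library.

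The Aurora kinases had the largest fold changes of the mitosis members. Aurka, the kinase of the spindle poles, was at 20.2, 18.8 and 24.1 CPM with DMSO and at 15.4, 65.9 and 22.8 CPM with NECA. NECA replicate 1 was the lowest library and NECA replicate 2 the highest. Aurkb, the kinase of the chromosomal passenger complex, was at 22.6, 22.7 and 33.6 CPM with DMSO and at 24.7, 77.3 and 27.7 CPM with NECA. The log2 fold changes were 0.72 (SE 0.49) and 0.72 (SE 0.44), and -0.14 (SE 0.21) and -0.0029 (SE 0.21) without NECA replicate 2. Birc5, the passenger protein survivin, differed by 0.46 (SE 0.38), and by -0.12 (SE 0.20) without it.

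Plk1, the Polo kinase of mitotic entry and spindle assembly, had the largest difference in the opposite direction once NECA replicate 2 was left out, and is given for that reason, a choice made after its values were seen. Plk1 (ENSMUSG00000030867, chromosome 7, 122159439 to 122169873, GRCm38) was at 30.4, 37.6 and 33.3 CPM with DMSO and at 25.0, 68.6 and 27.6 CPM with NECA. NECA replicates 1 and 3 lay below all 3 DMSO libraries and NECA replicate 2 above them. The log2 fold change was 0.26 (SE 0.37) with all libraries and -0.35 (SE 0.15) without NECA replicate 2, with an edgeR adjusted p of 0.848 in the latter fit.

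The spindle checkpoint kinases and the genes that act with the anaphase-promoting complex had fold changes of different size. Bub1b, the checkpoint protein BubR1, was at 30.0, 24.9 and 34.5 CPM with DMSO and at 33.1, 66.1 and 36.3 CPM with NECA, the mitosis member with the smallest p. NECA replicate 1 lay inside the DMSO range and NECA replicate 3 just above it. The log2 fold change was 0.60 (SE 0.28), and 0.22 (SE 0.17) without NECA replicate 2. Its partner Bub1 differed by 0.039 (SE 0.30), and by -0.35 (SE 0.21) without that library. Cdc20, the activator of the complex, was at 36.1, 42.7 and 47.1 CPM with DMSO and at 38.4, 91.4 and 43.9 CPM with NECA, with a log2 fold change of 0.47 (SE 0.32), or -0.024 (SE 0.16) without NECA replicate 2. Ube2c, the ubiquitin-conjugating enzyme that works with it, differed by 0.11 (SE 0.30), and by -0.25 (SE 0.22) without that library.

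Spindle and kinetochore genes completed the mitosis list. Kif11, the motor that pushes the spindle poles apart, was at 52.3, 40.2 and 60.8 CPM with DMSO and at 49.6, 105 and 58.3 CPM with NECA, with a log2 fold change of 0.48 (SE 0.30), or 0.081 (SE 0.19) without NECA replicate 2. Kif20a, a motor of cytokinesis, was at 20.8, 13.6 and 24.4 CPM with DMSO and at 18.8, 42.6 and 22.1 CPM with NECA, with a log2 fold change of 0.50 (SE 0.35), or 0.061 (SE 0.25) without that library. In both motors DMSO replicate 3 lay above NECA replicates 1 and 3. The kinetochore motor Cenpe was at 21.8, 28.3 and 26.0 CPM with DMSO and at 24.7, 45.2 and 23.2 CPM with NECA, and Cenpf at 27.2, 35.6 and 32.3 against 26.5, 54.6 and 29.6 CPM. Their log2 fold changes were 0.29 (SE 0.27) and 0.22 (SE 0.28), and -0.078 (SE 0.16) and -0.17 (SE 0.16) without NECA replicate 2. The microtubule-binding proteins Tpx2 and Nusap1 differed by 0.21 (SE 0.31) and 0.090 (SE 0.23), and by -0.28 (SE 0.14) and -0.16 (SE 0.18) without it.

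Mki67 and Top2a, the general markers of cycling cells, are high from S phase to mitosis. Mki67, which encodes the proliferation antigen Ki-67, was at 144, 193 and 166 CPM with DMSO and at 143, 317 and 141 CPM with NECA. Top2a, the topoisomerase that untangles chromosomes, was at 168, 149.8 and 226 CPM with DMSO and at 157, 406 and 177 CPM with NECA. In both, NECA replicate 2 was the highest library. NECA replicates 1 and 3 lay below all DMSO libraries in Mki67 and within their range in Top2a. The log2 fold changes were 0.26 (SE 0.33) and 0.45 (SE 0.37), and -0.23 (SE 0.15) and -0.11 (SE 0.19) without NECA replicate 2.

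Leaving out NECA replicate 2 lowered the fold changes of both lists. The difference between their medians was 0.21 with all libraries and 0.26 without it. Then 15 of 21 replication members were higher in NECA, with a median log2 fold change of 0.11, and 14 of 18 mitosis members were lower, with a median of -0.15. Of the 16121 genes tested in that fit, 47.4% were higher. All 6 subunits of the MCM2-7 helicase were among the higher ones, and all 4 mitotic kinases and passenger genes (Aurka, Aurkb, Plk1 and Birc5) among the lower ones, Aurkb at -0.0029 (SE 0.21). The 3 nucleotide supply genes of the replication list were lower too, from -0.27 to -0.049, and so were 2 of the 6 factors that load and switch on the helicase. With edgeR, 0 members and 0 of all genes (0.0%) were called in that fit, the smallest adjusted p among members being 0.848. At an unadjusted p under 0.05 there were 2 members, Mcm2 (higher) and Plk1 (lower), beside 5.49% of all genes. DESeq2 called 0 members without that library and 32 of all genes (0.198%).

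**Figure D3:**
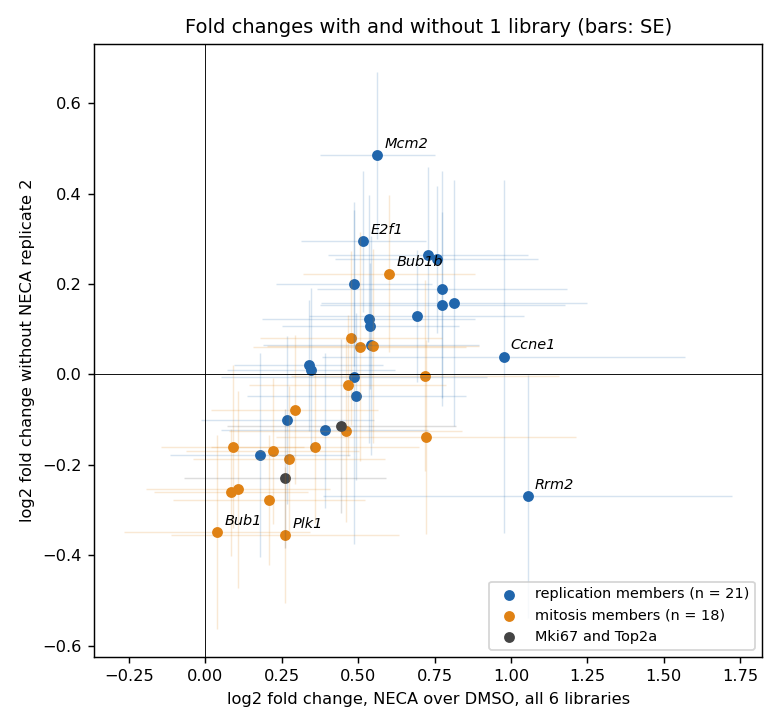
Log2 fold change of each member with all 6 libraries (horizontal axis) and without NECA replicate 2 (vertical axis), with bars of 1 standard error. Every point lies right of 0, while 15 of the 21 replication members (blue) and 4 of the 18 mitosis members (orange) lie above 0.

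The 2 lists were then compared within each library, where the scaling of the library largely cancels. The mean log2 CPM of the replication members minus that of the mitosis members was -0.26, -0.29 and -0.11 with DMSO against 0.043, 0.021 and -0.046 with NECA. The 3 NECA libraries lay above the 3 DMSO libraries, including NECA replicate 2, which was not the highest by this measure. The group means were -0.22 ± 0.094 with DMSO against 0.0063 ± 0.046 with NECA (SD over n = 3 libraries each), a difference of 0.22 on the log2 scale, and of 0.22 without NECA replicate 2. No test is given for this score, since the members were chosen with results of these data known.

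How the lists are summarised mattered. With Mcm2 and E2f1 left out the difference was 0.22, and with the 4 regulators Ccne1, Ccne2, E2f1 and E2f2 left out it was 0.20. It was 0.20 with the 9 members that overlap a protein-coding gene with counts on the opposite strand left out. Taking each gene relative to its own DMSO mean, and then the median over genes, gave 0.20. The groups did not overlap in these 4 settings, which reuse the same libraries and most of the same members and so are not separate results. With Mcm2 and E2f1 left out the gap was narrow, with NECA replicate 3 at -0.097 and DMSO replicate 3 at -0.12. In that setting the difference was 0.19 without NECA replicate 2. The median level over genes in place of the mean gave -0.047, with groups that overlapped. For 41 other replication and 50 other mitosis genes the same comparison gave 0.051, -0.061 and 0.039 with DMSO against 0.052, -0.010 and 0.12 with NECA, a difference of 0.045 with groups that overlapped. These 6 settings were added after the data were seen. The separation of the libraries by the members was therefore not found in the larger lists of the same processes.

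**Figure D4:**
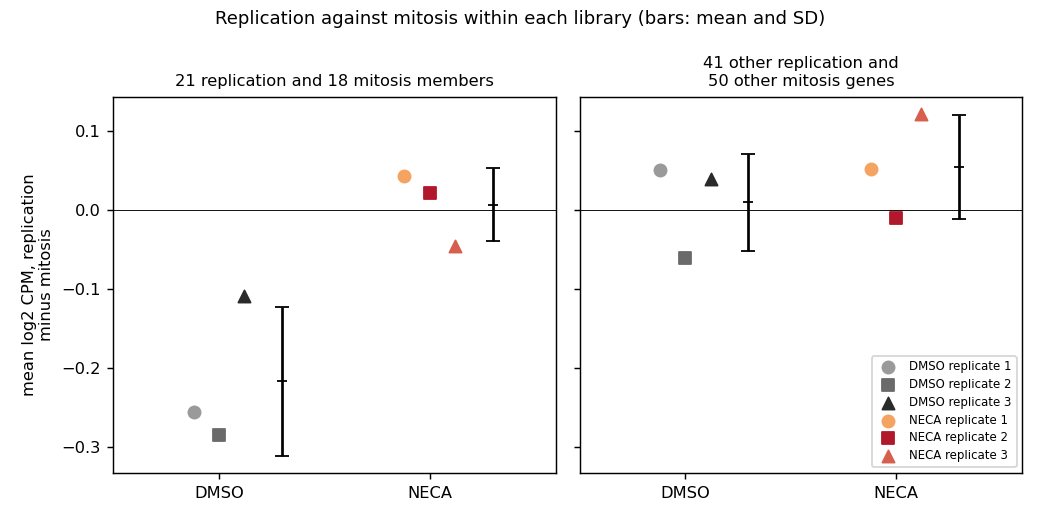
Mean log2 CPM of replication genes minus that of mitosis genes in each library, for the members (left) and for the other genes of the same processes (right), with the group mean and SD beside the points. The NECA libraries lie above the DMSO libraries on the left and overlap them on the right.

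How far the members varied together was also described over the libraries. The Pearson correlation of a member's log2 CPM with the mean of the other 40 had a median of 0.937 over the 6 libraries, and of 0.632 over the 5 libraries without NECA replicate 2. The points share library, scaling and depth, and no test was made. Over the 5 libraries the highest values were those of Cdc45 (0.980) and Ccne1 (0.962), and the lowest those of Gins1 (-0.18), Mcm2 (-0.032) and E2f1 (0.083). Mcm2 and E2f1, the members whose groups did not overlap, were among these 3 lowest. Both descriptions rest on the same values of the same libraries, so the low correlations are not a separate result. The median SD over the 5 libraries was 0.22 log2 CPM for the members and 0.24 for all genes tested, and over 6 libraries 0.48 and 0.30.

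Other genes of the same pathways were described from lists written for this work with earlier results known. Of 41 other replication genes, 37 were higher in NECA, with a median log2 fold change of 0.41, and 0 passed the edgeR test in either direction, with 2 at an unadjusted p under 0.05. Those with the smallest p were the flap endonuclease Fen1 at 0.86 (SE 0.31), the fork protein Timeless at 0.76 (SE 0.33), the polymerase subunit Pold1 at 0.60 (SE 0.26) and Uhrf1, which keeps up DNA methylation, at 0.58 (SE 0.29). Fen1 had few counts, at 1.06, 0.936 and 0.999 against 1.87, 2.04 and 1.55 CPM. Of 50 other mitosis genes 46 were higher, with a median of 0.37. By edgeR 0 were called and 1 had an unadjusted p under 0.05. The smallest p were those of Mybl2, a factor that drives late cell cycle genes, at 0.87 (SE 0.36), Ccnf at 0.66 (SE 0.29), Sgo2a at 0.71 (SE 0.33) and Prc1 at 0.57 (SE 0.33). Without NECA replicate 2 the medians were 0.0044 and -0.11, with 21 of 41 and 10 of 50 genes higher.

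Among 16 genes of G1, 14 were higher, with a median of 0.31, and edgeR called 0 of them, with 1 at an unadjusted p under 0.05. Without NECA replicate 2, the median was 0.13, with 12 higher and 4 lower. In 3 of the 16 all NECA libraries lay above all DMSO libraries, beside 6.49% of all genes. Cyclin D2 (Ccnd2), which carries growth signals into the cycle, was at 138, 112 and 141 CPM with DMSO and at 177, 306 and 166 CPM with NECA, without overlap between groups and with a log2 fold change of 0.73 (SE 0.26), or 0.40 (SE 0.15) without NECA replicate 2. Tfdp1, the partner of the E2F factors, was at 78.2, 69.9 and 86.2 against 91.1, 157 and 87.5 CPM, again without overlap, for 0.52 (SE 0.24). Ccnd1 differed by 0.80 (SE 0.39) and E2f4 by 0.36 (SE 0.16). Of the 12 inhibitors of the cycle 11 were tested, 4 higher and 7 lower, with a median of -0.065, and edgeR called 0, with 0 at an unadjusted p under 0.05. The inhibitor p21 (Cdkn1a) was at 58.9, 50.9 and 97.9 CPM with DMSO and at 60.6, 229 and 60.5 CPM with NECA, so that it too was highest in NECA replicate 2 and second in DMSO replicate 3. The pocket proteins Rb1 and Rbl1, which hold back E2F factors, differed by 0.30 (SE 0.16) and 0.41 (SE 0.29), and Btg1 by -0.23 (SE 0.17). DESeq2 also called 0 genes of these 4 lists.

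Markers of bowel position differed between libraries, most of all in NECA replicate 2. All 12 epithelial markers were higher in NECA, and their summed level was 8702, 7386 and 10164 CPM with DMSO and 9685, 12440.4 and 9800.1 CPM with NECA. Of the 10 distal small bowel markers 10 were higher in NECA, with a summed level of 1004, 868 and 1586 CPM with DMSO and 1110.5, 4639 and 1697 CPM with NECA. Fgf15 had 0 counts in DMSO replicates 1 and 2, Slc10a2 in DMSO replicate 2, and Fabp6 in NECA replicate 1. Of the 10 proximal markers 9 were tested and lower in NECA, with a summed level of 21975, 25513 and 22965 CPM with DMSO and 24633, 1036 and 22995 CPM with NECA and none at 0. NECA replicate 2 was thus the highest library by the distal sum and the lowest by the proximal sum. The mean log2 CPM of the distal markers was 3.84, 3.26 and 6.06 with DMSO and 4.36, 7.78 and 6.24 with NECA. By that measure DMSO replicate 3 and NECA replicate 3 also lay above DMSO replicates 1 and 2 and NECA replicate 1. For the proximal markers it was 7.64, 7.45 and 6.92 with DMSO and 6.85, 3.24 and 6.52 with NECA. The part of bowel position in the members' values and in the replication minus mitosis difference was not tested.

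The markers of crypt stem cells, which divide, were not higher with the members. Of 12 tested, 3 were higher and 9 lower in NECA, with a median log2 fold change of -0.096, none at 0 counts, 0 called by edgeR and 0 at an unadjusted p under 0.05. Their summed level was 1036, 1142 and 1037 CPM with DMSO and 1024, 651 and 924 CPM with NECA, so that NECA replicate 2 was lowest by this sum. Gene by gene, NECA replicate 2 was the lowest library in 5 of the 12 markers and the highest in 3. The median ratio of NECA replicate 2 to the mean of the other 5 libraries was 0.985. The mean log2 CPM of the markers was 5.09 in NECA replicate 2 and 5.10 to 5.30 in the others. NECA replicate 2 was thus lowest by the sum and by this mean, but how far it lay below depended on the measure. Olfm4 was at 582, 652 and 613 against 553, 266 and 508 CPM, while Lgr5 was at 14.8, 16.4 and 13.0 against 9.16, 19.6 and 12.2 CPM and highest in NECA replicate 2.

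Other cell types were measured by lists as well. The 11 leukocyte markers were all lower in NECA, with a median log2 fold change of -0.76. By edgeR 0 of them were called and 5 had an unadjusted p under 0.05, and in 4 all NECA libraries lay below all DMSO libraries, beside 7.16% of all genes. They summed to 536 to 576 CPM in DMSO and to 236 to 583 CPM in NECA, lowest in NECA replicate 2. The 8 tested of 10 erythroid markers, 5 of them higher, summed to 445 to 768 CPM in DMSO and 381 to 789 CPM in NECA, again lowest in NECA replicate 2, and Gata1 was at 0 in 4 libraries. The 9 smooth muscle markers, all lower in the fit, summed to 3132, 5961 and 2378 CPM in DMSO and to 2632 to 2866 CPM in NECA. Their median log2 fold change was -0.50 with all libraries. Without DMSO replicate 2 it was -0.051, with 4 markers higher and 5 lower. The 7 fibroblast markers, 2 of them higher, summed to 2994 to 4332 CPM in DMSO and 3184 to 4049 CPM in NECA. The 5 tested of 8 colon markers, 4 of them higher in the fit, summed to 92.1 to 266 CPM in DMSO and 62.7 to 72.8 CPM in NECA. Gene by gene, NECA replicate 2 was the highest library in 4 of the 5 and the lowest in 1. The median log2 fold change was 0.49 with all libraries and -1.74 without NECA replicate 2, when all 5 were lower. Hoxd13 was at 0 in all 6 libraries and Hoxb13 in all but DMSO replicate 1. Counts of the mitochondrial chromosome took 1.31% in NECA replicate 2 and 2.80% to 8.39% in the others. The part of these differences in the members' values was not tested.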

How the data were processed

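Per the file headers, the authors deposited for each library the raw count of each gene as a whole number and an FPKM value, which scales it by length and library. Per the submitters' processing notes, HISAT, StringTie and edgeR were used with builds mm10 and GRCm38. Versions and strand setting: not given in the sources used here. Per the labels' protocols, cDNA was made by SMARTer chemistry, amplified by PCR and sequenced in paired ends. Without molecular identifiers, reads are not independent molecules.

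Counts were filtered with filterByExpr (minimum count 10, minimum total 15), which left 15847 genes, scaled by TMM and tested with edgeR 4.0.16 (quasi-likelihood, two-sided, Benjamini-Hochberg, threshold 0.05) in R 4.3.3, without covariates. Each SE was derived from the F statistic. DESeq2 1.42.0 was an alternative. The fit was tested on counts simulated from gene means, with no library made to depart from its group. That check does not cover a library such as NECA replicate 2. FPKM values were used only to set levels beside each other between genes. Coordinates are from GENCODE M21 (GRCm38).

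The members and all lists were chosen with earlier results of these data known. Values in every library are given for Mki67, Top2a and Pcna, for the 6 members of each list with the smallest p, for the 2 highest and 2 lowest by FPKM and for members without overlap. The values of 1 marker gene are not reported here. Up to 4 genes with the smallest p stand for each other pathway list. Rrm2 and Plk1 were added after their values were seen. Alternatives were other scalings, filters, a robust fit, a replicate block, mitochondrial genes left out, each library left out and DESeq2.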

Additional observations from a re-analysis of the deposited data

How the results depend on the processing

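Members called stayed at 0 under every alternative run. Of all genes, edgeR called 2 without the filter on low counts and 0 in each of its other fits. DESeq2 called 11 with all libraries and 32 without NECA replicate 2. When 1 library was left out at a time, the median log2 fold change ran from 0.11 to 0.75 for the replication and from -0.15 to 0.54 for the mitosis members, in both lists lowest without NECA replicate 2. The difference of these medians, 0.21, ran from 0.18 (without NECA replicate 1) to 0.34 (without DMSO replicate 3). The replication minus mitosis level, 0.22, was -0.047 with the median level over members and 0.045 in the other lists of both processes. The cause was not tested.

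Over 8 alternatives that keep all libraries, the 22 named members kept their direction, and 9 of these 22 changed sign only without NECA replicate 2. Of all 41 members, 22 were lower in NECA without NECA replicate 2. Without DMSO replicate 1, 3 were lower, namely Bub1 (-0.14), Ube2c (-0.095) and Nusap1 (-0.0043), and 0 were lower when any other library was left out. Over the fits that leave out 1 library, fold changes ran from -0.0050 to 0.77 for Ccne2, -0.0029 to 1.0 for Aurkb, -0.14 to 1.08 for Aurka, -0.26 to 0.26 for Ccnb2, -0.024 to 0.69 for Cdc20, -0.17 to 0.41 for Cenpf, -0.078 to 0.47 for Cenpe, -0.23 to 0.46 for Mki67 and -0.11 to 0.69 for Top2a. DESeq2 without NECA replicate 2 gave -0.00061 for Ccne2, -0.13 for Aurka, -0.25 for Ccnb2, -0.018 for Cdc20, -0.16 for Cenpf, -0.072 for Cenpe, -0.22 for Mki67 and -0.11 for Top2a. For Aurkb it gave 0.0034, so the sign of Aurkb without that library depended on the method.

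Replicate numbers are shared by the groups, but their deviations correlated by only 0.0087, -0.19 and -0.020 across genes, so the numbers were not taken to pair the libraries. With the replicate block, 0 genes and 0 members were called, the medians were 0.49 and 0.24, and the level difference was 0.22. Members had 69 or more counts in every library, and 3 libraries a group limit the precision.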
